A study of Homo sapiens with 30 samples.

Results

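The genes described here are 10 established androgen-induced genes measured in LNCaP prostate cancer cells: SLC45A3, C1orf116, ELL2, EAF2, GNMT, HERC3, PTGER4, TIPARP, ABCC4 and PMEPA1. They were found by their Ensembl identifiers, with the version removed, among the 37843 genes of the LNCaP count table. All 10 had a row, and all 10 passed the low-count filter that left 18403 genes for testing. The question put to them was dose sensitivity, that is, how much of the response to a saturating androgen dose was already present at doses 100 or more times lower. LNCaP is an established line that came from a prostate cancer metastasis in a lymph node. Cells were plated at 130000 per well in medium with 8% charcoal-stripped serum, which lacks most steroid hormones, and R1881 or vehicle was added 48 h later. R1881 (metribolone) is a synthetic androgen. After a further 24 h, RNA was taken from cells given vehicle or R1881 at 0.03, 0.06, 0.1 or 10 nM. The labels name no genetic change in the cells, and all 5 groups shared the same stripped medium. Each group held 3 libraries, numbered 2, 3 and 4. Nothing in the labels says whether these came from separate cultures, so the p-values measure only the spread between these libraries, which may be technical.

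Androgens change transcription through hormone-dependent binding to DNA, mostly at enhancers away from gene starts, where the preferred site, the androgen response element, is a pair of inverted half-sites. In prostate luminal cells the induced genes serve secretion, lipid and amino acid metabolism, membrane transport and the control of transcription itself. Several of the genes below are used as readouts of androgen activity in tumours.

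Total counts ran from 30666460 to 61199483 per library. Levels below are CPM, the counts of a gene per 1000000 counts of the library, scaled by the trimmed mean of M-values (TMM). The 5 libraries numbered 3, 1 in each group, had 9.31% to 10.7% of their counts in mitochondrially encoded genes, against 6.14% to 7.69% in the other 10. All 7 luminal markers summed here (FOXA1, HOXB13, KRT8, KRT18, FOLH1, EPCAM and CDH1) were detected in every group. Their summed level was 4566 to 4621 CPM in vehicle and 7169.8 to 7670.5 CPM at 10 nM. Over 0.03 to 0.1 nM it was 3729 to 4269 CPM, below vehicle. At 10 nM the keratins KRT8 (log2 2.61) and KRT18 (2.28) rose, HOXB13 (-0.40), FOLH1 (-1.05) and EPCAM (-0.23) fell, and FOXA1 and CDH1 were not called. Of 10 markers of basal, stromal, leukocyte and endothelial cells, 8 were in the table. Their summed level was 49.8 to 63.1 CPM in vehicle and 26.4 to 32.1 CPM at 10 nM, and PTPRC, PECAM1 and TP63 were at or near 0. The stromal marker COL1A1 was at 32.5 CPM in vehicle and 18.1 CPM at 10 nM, and the endothelial marker VWF at 18.7 and 6.41 CPM. Of the 4 markers that could be tested, COL1A1, VIM and VWF were called lower at 10 nM. KRT14, a basal keratin, was called higher at all 4 doses, with group means under 1 CPM (0.0226 CPM in vehicle and 0.357 CPM at 10 nM). The part of these markers in the results below was not tested. ERG, which is not rearranged in LNCaP cells, was at most 0.157 CPM. In bulk libraries such as these, fewer cells of a type and less RNA per cell cannot be told apart.

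Promoter sequence was available from RefSeq (GRCh38.p14) for 9 of the 10 genes, in 15 windows from 250 bases before to 50 after a start site. The stretches before the start are shown for the 3 genes that reached the largest shares of their response at 0.1 nM (PMEPA1, C1orf116 and SLC45A3) and for the 2 with the smallest (GNMT and TIPARP), so that the proximal DNA of the most and the least sensitive genes can be compared. Each is read 5′ to 3′ on the gene's strand and ends at the base before the start, and for genes with several starts the window free of annotated exons is shown. Capitals mark GCGTG, the core of the site of the AHR-ARNT dimer, on either strand (CACGC where it lies on the other strand).
SLC45A3, chr1:205680510-205680759, minus strand: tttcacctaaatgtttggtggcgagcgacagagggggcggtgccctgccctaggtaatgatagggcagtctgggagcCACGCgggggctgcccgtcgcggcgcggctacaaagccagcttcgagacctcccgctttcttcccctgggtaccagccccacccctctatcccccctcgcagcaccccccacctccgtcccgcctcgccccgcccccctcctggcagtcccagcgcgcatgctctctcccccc
C1orf116, chr1:207032757-207033006, minus strand: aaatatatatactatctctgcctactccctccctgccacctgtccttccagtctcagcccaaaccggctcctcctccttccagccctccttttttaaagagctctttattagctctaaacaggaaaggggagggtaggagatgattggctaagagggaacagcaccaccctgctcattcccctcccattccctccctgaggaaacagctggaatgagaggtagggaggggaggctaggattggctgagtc
PMEPA1 (the most downstream of its listed starts), chr20:57690687-57690936, minus strand: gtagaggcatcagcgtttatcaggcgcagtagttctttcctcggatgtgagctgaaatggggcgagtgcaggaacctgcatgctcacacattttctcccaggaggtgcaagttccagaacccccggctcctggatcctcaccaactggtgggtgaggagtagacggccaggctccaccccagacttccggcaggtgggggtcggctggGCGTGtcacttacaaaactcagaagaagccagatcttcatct
GNMT, chr6:42960504-42960753, plus strand: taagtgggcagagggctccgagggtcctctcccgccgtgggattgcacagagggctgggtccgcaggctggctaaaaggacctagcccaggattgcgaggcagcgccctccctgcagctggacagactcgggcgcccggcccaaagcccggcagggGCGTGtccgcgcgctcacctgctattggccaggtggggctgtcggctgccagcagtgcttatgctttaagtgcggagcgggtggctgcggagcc
TIPARP (the most downstream of its listed starts), chr3:156676414-156676663, plus strand: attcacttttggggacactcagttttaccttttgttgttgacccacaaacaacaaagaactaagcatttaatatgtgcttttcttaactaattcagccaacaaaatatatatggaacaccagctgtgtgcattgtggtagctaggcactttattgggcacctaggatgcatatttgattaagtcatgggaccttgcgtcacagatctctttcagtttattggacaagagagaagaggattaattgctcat
The windows were searched on both strands for the full androgen response element, AGAACA followed after 3 bases by TGTTCT, for its half-site AGAACA, for GCGTG and for TATAAA. No window of these genes held the full element, which was present in 0.00285% of 35116 promoter windows of the same length. The half-site AGAACA, part of the full element, lay in 2 of the 15 windows, both of PMEPA1 and neither among those shown, against 14.8% of all windows. GCGTG lay in 10 of the 15, against 36.5% of all, and TATAAA in 0 of the 15, against 11.5%. The content of G and C in the windows shown was 69.2% in SLC45A3, 68.4% in GNMT, 56.8% in PMEPA1, 52.4% in C1orf116 and 38% in TIPARP. It differed between the starts of a gene. The TIPARP windows not shown had 71.6% and 74%, and the PMEPA1 windows not shown 63.2%, 55.6% and 76.8%. Which start these cells used was not tested. Among the genes shown, C1orf116 and this start of TIPARP held none of the 4 motifs, although their dose responses lay near opposite ends. Of the 2 other TIPARP windows, not shown because they overlap annotated exons, 1 (156674340 to 156674589) held 2 matches of GCGTG. A match is a description of the letters, and no binding was measured here.

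All 10 genes rose between vehicle and 10 nM R1881, by 2.07 to 4.60 on the log2 scale with a median of 3.41. In each of them the lowest library at 10 nM was above the highest in vehicle. The share of all tested genes without such overlap was not computed, so the lack of overlap, here and below, only describes these libraries. A call here means an edgeR quasi-likelihood test with a Benjamini-Hochberg adjusted p under 0.05 over all tested genes. At 10 nM 29.3% of all tested genes were called higher, and the median over all genes was -0.01. At 0.03 nM 8 of the 10 were called higher (background 5.47%), at 0.06 nM 9 (background 16.9%) and at 0.1 nM all 10 (background 21.5%). The exceptions were EAF2 at 0.03 nM and TIPARP at 0.03 and 0.06 nM. Without the 5 libraries numbered 3 these counts were 7, 9 and 10, and all 10 were called at 10 nM. Their median log2 changes at these doses were 0.71, 1.44 and 2.0. Of all tested genes 3.16%, 14.3%, 20.6% and 28.3% were called lower at 0.03, 0.06, 0.1 and 10 nM. The comparisons with vehicle share the vehicle libraries. Without TMM factors, on library totals alone, the median of all genes at 10 nM moved to -0.22 and the share of calls that were higher went from 50.9% to 27.8%. On that scaling the 10 genes were still all called higher at 10 nM, with a median of 3.21.

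**Figure D1:**
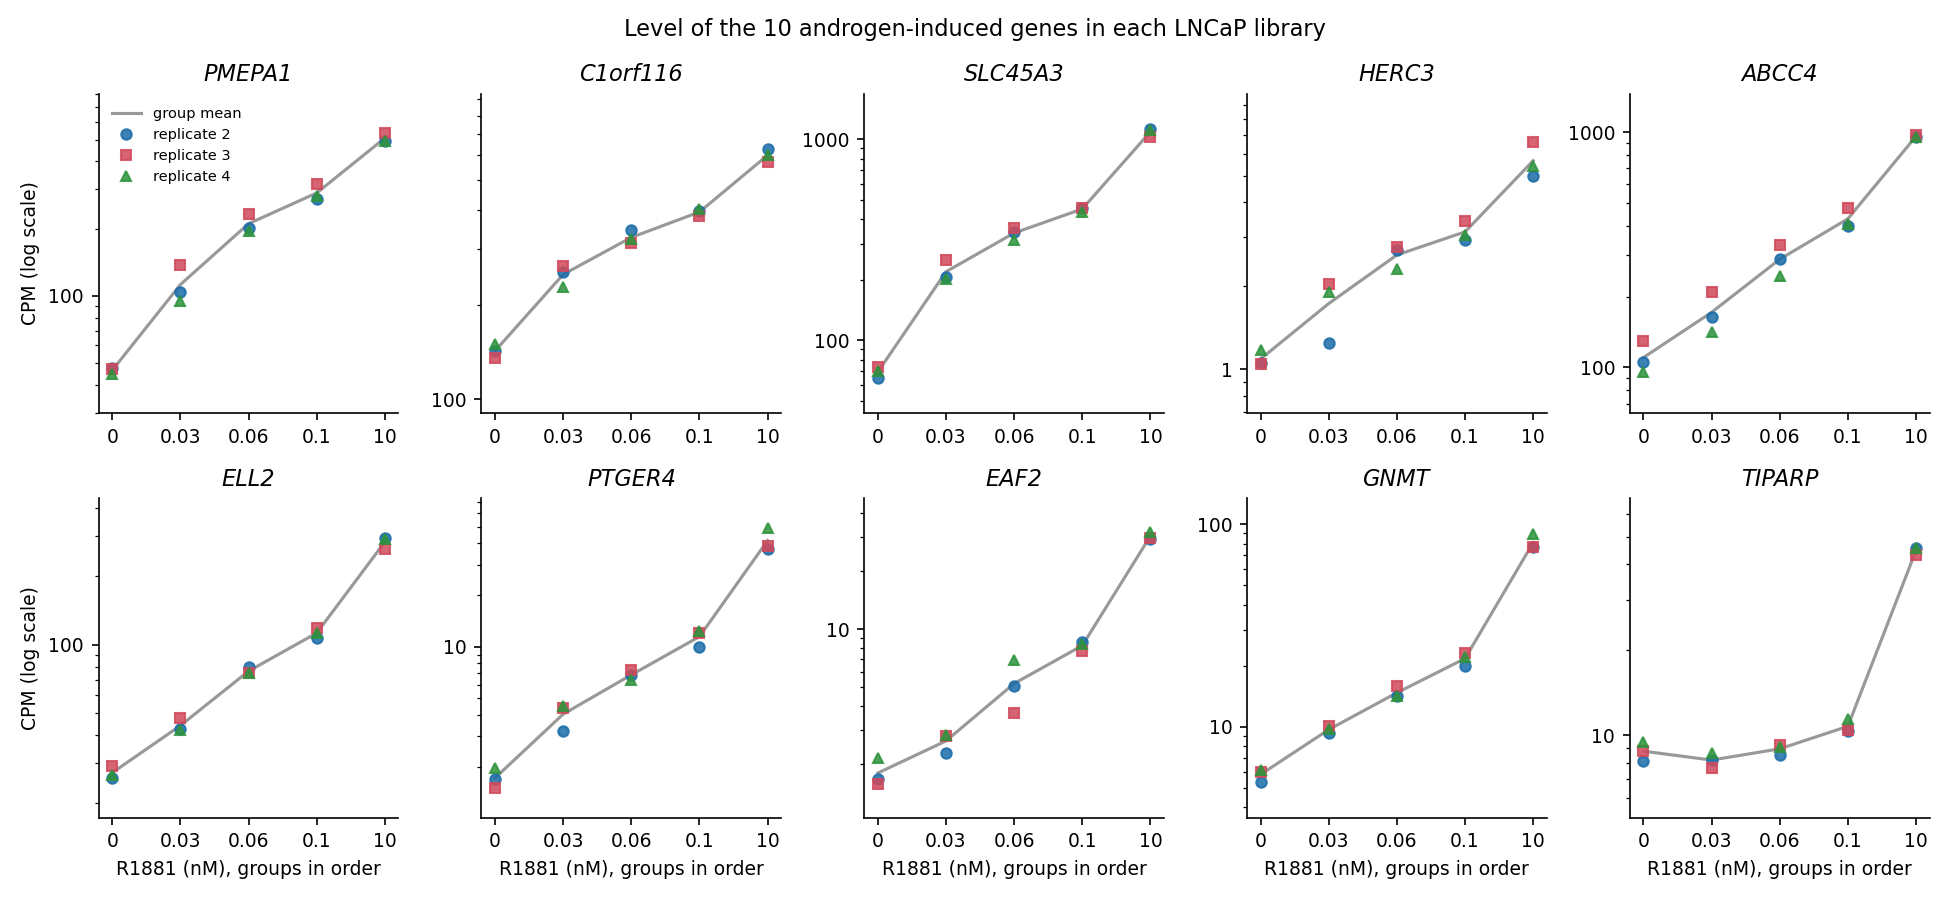
Level of each of the 10 genes in every LNCaP library, in CPM on a log axis with its own range per gene, against the R1881 groups in order of dose (0 is vehicle; the spacing is not to scale). Points are libraries by replicate number and lines join the group means of 3 libraries. TIPARP stays between 7.69 and 9.46 CPM through 0.06 nM and reaches 43.0 to 45.6 CPM at 10 nM, whereas SLC45A3 has already left its vehicle range at 0.03 nM.

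SLC45A3, or prostein, is a membrane protein of the sugar transporter-like SLC45 family, is largely restricted to prostate epithelium, and is known as a 5′ fusion partner of ETS genes in prostate cancer (ENSG00000158715.6, chromosome 1, 205657851 to 205680459, minus strand, GRCh38). Its levels in libraries 2, 3 and 4 were 64.8, 73.5 and 69.9 CPM in vehicle and 206, 249.8 and 201 CPM at 0.03 nM. They were 346, 363 and 316 CPM at 0.06 nM, 457, 457 and 436 CPM at 0.1 nM, and 1127, 1029.9 and 1114 CPM at 10 nM. No 2 groups overlapped, and the library numbered 3 was the highest or tied for it at every dose but 10 nM. The lowest dose thus stood 3.15-fold above vehicle (log2 1.66 ± 0.079, edgeR adjusted p = 4.18e-10), the largest change among the 10 genes at that dose, and 10 nM stood 15.7-fold above vehicle (3.97 ± 0.086, edgeR adjusted p = 1.97e-16). Its family moved little at the saturating dose. Of SLC45A1, SLC45A2 and SLC45A4, SLC45A4 alone was called at 10 nM, higher by 0.17 ± 0.072, and it was not called on library totals (-0.04). At 0.06 and 0.1 nM SLC45A1 and SLC45A2 were called lower.

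ABCC4 (MRP4) is an efflux pump that exports cyclic nucleotides, prostaglandins and conjugated steroids (ENSG00000125257.16, chromosome 13, 95019829 to 95301475, minus strand). It read 105, 129.5 and 95.8 CPM in vehicle, 164, 209 and 141 CPM at 0.03 nM and 289, 331 and 244 CPM at 0.06 nM. At 0.1 nM it read 401, 477 and 406 CPM and at 10 nM 953, 972 and 951 CPM. The library numbered 3 was the highest in all 5 groups, and the groups did not overlap. The rise at 10 nM was 8.71-fold (log2 3.12 ± 0.14, edgeR adjusted p = 2.24e-12), and the rise at 0.03 nM was 1.55-fold (adjusted p = 0.00490). Other members of the ABCC family largely went the other way. Of 6 tested, ABCC1, a pump for glutathione conjugates, rose from 141 ± 7.36 to 563 ± 39.2 CPM (log2 2.0), and 4 fell, led by ABCC6 (-1.29) and ABCC5 (-0.75). The family median was -0.31. On library totals the count was again 1 higher and 4 lower.

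ELL2 raises the rate of RNA polymerase II and is a subunit of the super elongation complex (ENSG00000118985.16, chromosome 5, 95885098 to 95962071, minus strand). Its libraries gave 25.9, 29.1 and 26.8 CPM in vehicle, 42.3, 47.7 and 42.0 CPM at 0.03 nM, and 79.5, 74.6 and 75 CPM at 0.06 nM. They gave 106, 118 and 113 CPM at 0.1 nM and 295, 263 and 292 CPM at 10 nM. The spread within each group was small against the steps between groups, and no groups overlapped. ELL2 rose 1.61-fold at 0.03 nM (log2 0.69 ± 0.067, edgeR adjusted p = 3.94e-06) and 10.4-fold at 10 nM (3.38 ± 0.070, adjusted p = 1.46e-16). EAF2 binds ELL proteins and stimulates their activity, and was first described as a testosterone-regulated gene of the prostate (ENSG00000145088.9, chromosome 3, 121835183 to 121886526, plus strand). It was scarce in vehicle, at 1.66, 1.58 and 2.15 CPM, and read 2.29, 2.80 and 2.81 CPM at 0.03 nM. At 0.06 nM its libraries spread most, over 5.09, 3.69 and 6.92 CPM, before 8.58, 7.75 and 8.37 CPM at 0.1 nM and 29.5, 30 and 32.0 CPM at 10 nM. The difference at 0.03 nM was 0.55 ± 0.19 on the log2 scale and was not called by edgeR (adjusted p = 0.0864), although the 3 libraries lay above all 3 of vehicle. It was called by DESeq2 (adjusted p = 0.0237), and also by edgeR without the low-count filter or with the replicate number as a block. At 10 nM EAF2 had risen 17-fold (log2 4.08 ± 0.17, edgeR adjusted p = 5.26e-13), the second largest change of the set.

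Most other subunits of the elongation machinery changed little. Of 15 tested genes for ELL paralogs, EAF1, the AFF scaffolds, the P-TEFb kinase, its inhibitor HEXIM1 and the little elongation complex, 6 were called higher at 10 nM and 2 lower, with a median log2 change of 0.04. AFF3, a scaffold of the complex, stood apart among them and rose from 9.85 ± 1.86 to 73.3 ± 6.57 CPM (log2 2.89 ± 0.12), with 13.5 CPM at 0.03 nM, 22.5 CPM at 0.06 nM and 34.2 CPM at 0.1 nM. AFF4 rose by 0.53 and HEXIM1 by 0.26 at 10 nM, and at 0.1 nM both were called lower than vehicle (-0.22 and -0.25). On library totals 2 of the 15 were called higher and 6 lower, so the direction of the small changes in this list rests on the scaling, and HEXIM1 was no longer called at 10 nM (0.06). AFF3 and AFF4 were the 2 that were still called higher.

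PTGER4 encodes EP4, a receptor for prostaglandin E2 that signals through cAMP (ENSG00000171522.6, chromosome 5, 40679498 to 40693735, plus strand). It read 1.69, 1.51 and 1.96 CPM in vehicle, 3.23, 4.37 and 4.54 CPM at 0.03 nM and 6.87, 7.34 and 6.37 CPM at 0.06 nM. It then read 9.98, 12.1 and 12.3 CPM at 0.1 nM and 37.4, 38.5 and 49.1 CPM at 10 nM. The groups did not overlap. This was the largest fold change of the set at 10 nM, 24.2-fold (log2 4.60 ± 0.15, edgeR adjusted p = 2.92e-14), from the second lowest of the vehicle levels in CPM after HERC3. Of 8 tested genes of prostaglandin synthesis, transport and breakdown, 3 were higher and 2 lower at 10 nM, with a median of 0.07 (on library totals 3 and 3). HPGD, which inactivates prostaglandin E2, rose from 0.389 ± 0.139 to 37.5 ± 3.23 CPM (log2 6.58). PTGS1, a cyclooxygenase, fell by 2.08 and PTGER3, another receptor for prostaglandin E2, fell by 1.69 on the log2 scale, both from under 1 CPM. PTGER1, PTGER2, PTGS2 and PTGES were too low to test.

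PMEPA1 is a membrane protein that binds NEDD4-type ubiquitin ligases and dampens TGF-beta signalling (ENSG00000124225.16, chromosome 20, 57648392 to 57711536, minus strand). Its levels were 47.8, 46.9 and 44.7 CPM in vehicle, 105, 138 and 94.8 CPM at 0.03 nM, and 202, 234 and 196 CPM at 0.06 nM. They were 272, 316 and 279 CPM at 0.1 nM and 496, 537 and 494 CPM at 10 nM. The library numbered 3 was the highest at each of the 4 R1881 doses, and no groups overlapped. The rise was 2.42-fold at 0.03 nM (log2 1.27 ± 0.11, edgeR adjusted p = 6.86e-07) and 11-fold at 10 nM (3.45 ± 0.11, adjusted p = 3.31e-14). In the TGF-beta list 7 of 15 genes were called higher at 10 nM and 3 lower, with a median of 0.15. The receptor-regulated factor SMAD3 fell from 25.1 ± 1.20 to 7.0 ± 0.203 CPM (log2 -1.84), with the inhibitory SMAD6 and SMAD7 the other 2 that fell. NEDD4L, a ligase for SMAD proteins, rose from 251 ± 25.4 to 532 ± 44.0 CPM (1.08), and LDLRAD4, a relative of PMEPA1, rose from 0.205 ± 0.0867 to 0.775 ± 0.177 CPM (1.88). On library totals 4 of the 15 were higher and 4 lower. SMAD3 was the gene of the list that was called at 0.03 nM, where it fell by 0.44.

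TIPARP (PARP7) is a mono-ADP-ribosyltransferase and a classical target of the aryl hydrocarbon receptor AHR (ENSG00000163659.13, chromosome 3, 156673235 to 156706770, plus strand). It differed in shape from the other 9. Vehicle libraries read 8.11, 8.83 and 9.46 CPM, those at 0.03 nM 8.18, 7.69 and 8.69 CPM, and those at 0.06 nM 8.56, 9.28 and 9.07 CPM. These 3 groups overlapped. At 0.1 nM the libraries read 10.4, 10.4 and 11.5 CPM, just above vehicle (log2 0.29 ± 0.076, edgeR adjusted p = 0.00517), and at 10 nM 45.6, 43.0 and 45.6 CPM (2.34 ± 0.073, 5.08-fold, adjusted p = 1.76e-14). The log2 differences from vehicle at the 2 lower doses were -0.10 ± 0.077 (adjusted p = 0.501) and 0.03 ± 0.077 (adjusted p = 0.847), and the second of these became -0.01 on library totals. Of 12 tested genes of the AHR pathway and the mono-ADP-ribosyltransferase family, CYP1A1, the AHR-induced cytochrome, was the 1 called higher at 10 nM, from 1.24 ± 0.293 to 2.84 ± 0.403 CPM (log2 1.19). It was not called at 0.03, 0.06 or 0.1 nM. The transferase PARP8 fell from 16.1 ± 0.415 to 4.98 ± 0.187 CPM (-1.69), as did PARP6 from 0.629 ± 0.224 to 0.172 ± 0.0788 CPM (-1.79). In all 6 of the list fell at 10 nM, with a list median of -0.25, and 10 were called lower on library totals. AHR itself was at 2.62 ± 0.311 CPM in vehicle and 2.49 ± 0.101 CPM at 10 nM (adjusted p = 0.75).

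GNMT, glycine N-methyltransferase, consumes S-adenosylmethionine to make sarcosine (ENSG00000124713.6, chromosome 6, 42960758 to 42963880, plus strand). It read 5.32, 5.99 and 6.11 CPM in vehicle, 9.27, 10.1 and 9.69 CPM at 0.03 nM and 14.1, 15.9 and 14.1 CPM at 0.06 nM. It reached 20, 23.1 and 22 CPM at 0.1 nM and 76.8, 76.6 and 89.6 CPM at 10 nM. The groups were well apart from each other. The change was 1.66-fold at 0.03 nM (log2 0.73 ± 0.090, edgeR adjusted p = 4.67e-05) and 13.9-fold at 10 nM (3.80 ± 0.086, adjusted p = 3.35e-16). Other enzymes of the methionine and glycine methyl cycle moved by much less. At 10 nM 7 of 12 were called higher and 3 lower, with a median of 0.24, and the largest changes were in DMGDH, the dimethylglycine dehydrogenase (-1.24 ± 0.39), MAT2A, which makes S-adenosylmethionine (0.41 ± 0.056), and AHCYL1 (-0.37 ± 0.041). On library totals the count was 2 higher and 4 lower. SARDH, the sarcosine dehydrogenase, and BHMT were too low to test.

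HERC3, a ubiquitin ligase with HECT and RCC1-like domains, was the scarcest of the 10 (ENSG00000138641.18, chromosome 4, 88592423 to 88708542, plus strand). It read 1.05, 1.04 and 1.18 CPM in vehicle and 1.25, 2.03 and 1.91 CPM at 0.03 nM, where replicate 2 lay close to vehicle. It read 2.69, 2.76 and 2.31 CPM at 0.06 nM, 2.93, 3.42 and 3.06 CPM at 0.1 nM and 4.98, 6.59 and 5.40 CPM at 10 nM. The groups did not overlap, but the call at 0.03 nM (log2 0.66 ± 0.19, edgeR adjusted p = 0.0369) was lost on leaving out 6 of the 15 libraries, 1 at a time. Those were vehicle replicates 2, 3 and 4 (adjusted p 0.0994, 0.105 and 0.0709), 0.03 nM replicates 3 and 4 (0.131 and 0.149) and 10 nM replicate 4 (0.0502), all by edgeR. At 10 nM the change was 5.19-fold (2.38 ± 0.17, adjusted p = 1.35e-09). In its family HERC5, a ligase for the ubiquitin-like ISG15, rose from 3.57 ± 0.523 to 12.4 ± 0.842 CPM (1.80), HERC4 rose by 0.78 and HERC6 by 0.60. HERC1 and HERC2 fell, and the calls were the same on library totals.

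C1orf116 encodes SARG, the specifically androgen-regulated gene protein, whose function is little known (ENSG00000182795.13, chromosome 1, 207018521 to 207032756, minus strand). It was the highest of the 10 in vehicle, at 143, 135 and 149.7 CPM, and read 254, 266 and 228 CPM at 0.03 nM. Its libraries gave 345, 315 and 323 CPM at 0.06 nM, 398, 384 and 402 CPM at 0.1 nM and 627, 569 and 599 CPM at 10 nM. No groups overlapped, and the spread within each group was small against the steps between them. The rise was 1.75-fold at 0.03 nM (log2 0.81 ± 0.062, edgeR adjusted p = 2.72e-07) and 4.19-fold at 10 nM (2.07 ± 0.063, adjusted p = 1.45e-14), the smallest of the set.

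Levels of different genes were compared per kilobase of annotated exon. In vehicle the order was C1orf116 (25.9 ± 1.30 CPM per kb), SLC45A3 (18.7 ± 1.17), ABCC4 (12.7 ± 2.02), PMEPA1 (8.27 ± 0.280), GNMT (5.42 ± 0.397), ELL2 (3.72 ± 0.229), TIPARP (1.74 ± 0.133), EAF2 (1.01 ± 0.173), PTGER4 (0.434 ± 0.0574) and HERC3 (0.156 ± 0.0106). At 10 nM SLC45A3 led with 294 ± 14.2 CPM per kb. ABCC4 (111 ± 1.33) and C1orf116 (109 ± 5.30) came next and did not differ beyond their spread, followed by PMEPA1 (90.6 ± 4.35) and GNMT (75.6 ± 6.94). ELL2 was at 38.6 ± 2.39, EAF2 at 17.2 ± 0.763, PTGER4 at 10.5 ± 1.63, TIPARP at 8.86 ± 0.299 and HERC3 at 0.810 ± 0.119 CPM per kb. PTGER4 and TIPARP lay close together at 10 nM, with a difference of the size of the SD of PTGER4, whereas in vehicle TIPARP had been well above both EAF2 and PTGER4.

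Between neighbouring doses the climb continued in most of the genes. From 0.03 to 0.06 nM 8 of the 10 were called higher (background 4.20%), the others being HERC3 (log2 0.58 ± 0.17, edgeR adjusted p = 0.0546) and TIPARP (0.13 ± 0.078). From 0.06 to 0.1 nM again 8 were called (background 1.07%), with steps of 0.27 in C1orf116 to 0.74 in PTGER4, and HERC3 and TIPARP were again the exceptions. That last count was fragile. It fell to 3 without 0.06 nM replicate 4, to 4 without 0.1 nM replicate 3 or replicate 4, and to 5 without 0.06 nM replicate 2 or 0.1 nM replicate 2. The step of SLC45A3, 0.40, became 0.34 without 0.06 nM replicate 4 (edgeR adjusted p = 0.100), and over the 15 fits with a library left out the step of EAF2, 0.64, ran from 0.46 to 0.89. ELL2 and GNMT kept their call in each of the 15 fits with a library left out. From 0.1 to 10 nM all 10 were called higher (background 20.6%), by 0.60 in C1orf116 to 2.06 in TIPARP, and from 0.06 to 10 nM likewise all 10 (background 22.7%). For TIPARP the step from 0.1 to 10 nM was 4.16-fold, against 1.22-fold from vehicle to 0.1 nM. For PMEPA1 the corresponding values were 1.76-fold and 6.22-fold.

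Dose sensitivity was expressed as the share of the 10 nM log2 change that was reached at a lower dose. The 3 shares of a gene use the same vehicle and 10 nM libraries. PMEPA1 had reached 36.9% at 0.03 nM (95% interval 30.9 to 42.7), 63.1% at 0.06 nM (57.4 to 69.0) and 76.4% at 0.1 nM (70.5 to 82.5). SLC45A3 had reached 41.7% (38.0 to 45.4), 57.8% (54.2 to 61.6) and 67.9% (64.2 to 71.7), and C1orf116 39.1% (33.3 to 44.8), 58.0% (52.3 to 63.8) and 71.0% (65.2 to 76.9). At 0.03 nM these 3 genes lay above the intervals of ELL2, ABCC4, GNMT and EAF2. ELL2 had reached 20.4% (16.3 to 24.4), 44.0% (40.3 to 47.7) and 60.6% (56.9 to 64.3). ABCC4, with a wider interval, followed the same course at 20.4% (11.5 to 28.8), 44.4% (36.3 to 52.6) and 62.7% (54.7 to 71.0). PTGER4 was at 26.9%, 43.4% and 59.5% (53.9 to 65.0 at 0.1 nM), and HERC3, the scarcest gene and the one with the widest intervals, at 27.7% (11.1 to 42.4), 52.2% and 64.1% (50.8 to 77.3). Later risers were EAF2 with 13.6%, 38.1% and 53.7% (46.4 to 60.9 at 0.1 nM) and GNMT with 19.3%, 35.2% and 50% (45.9 to 54.1). TIPARP was apart from all of them, at -4.29% (-12.1 to 2.92), 1.08% (-6.53 to 8.17) and 12.3% (5.26 to 18.9), and at each dose its interval lay below that of every other gene, EAF2 at 0.03 nM (3.29 to 22.9) being the nearest. The medians over the 10 genes were 23.7%, 44.2% and 61.6%, and 21.5%, 44.4% and 61.1% without the 5 libraries numbered 3.

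**Figure D2:**
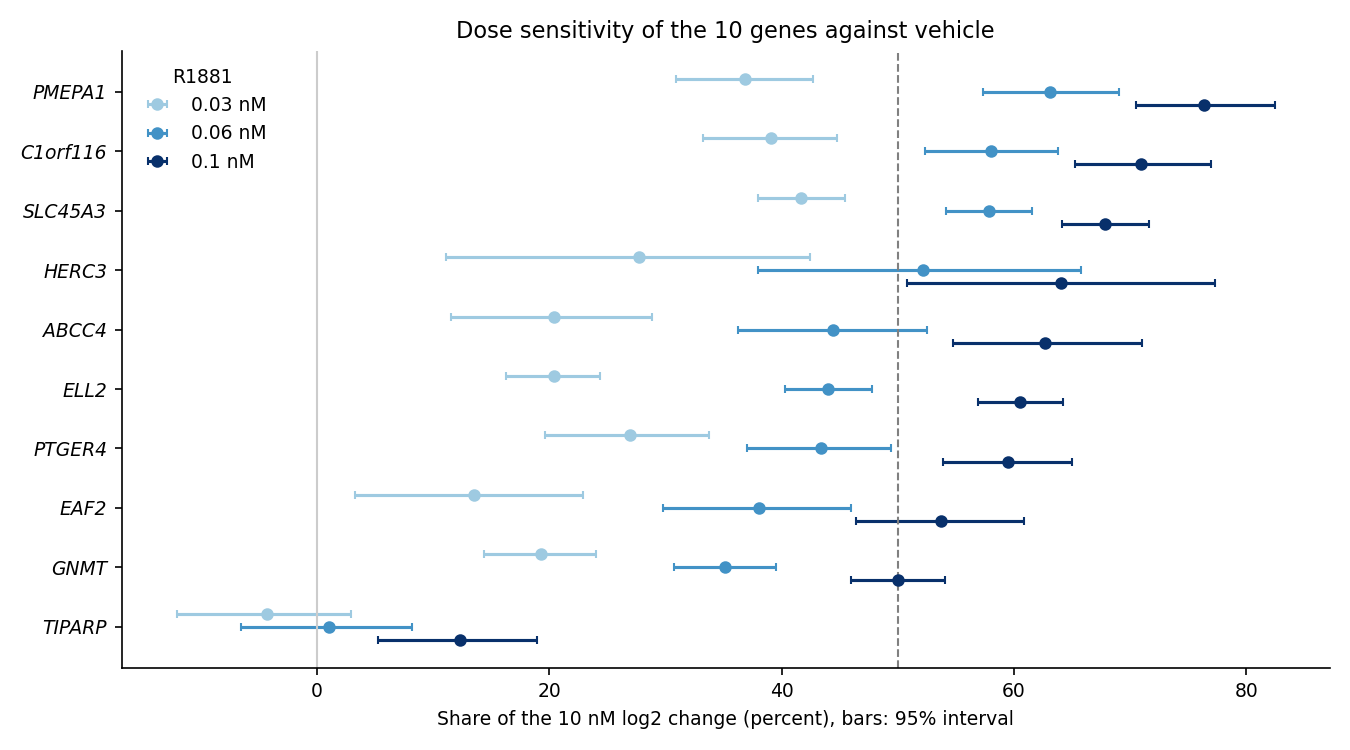
Share of the 10 nM log2 change reached at 0.03, 0.06 and 0.1 nM R1881, in percent, for each of the 10 genes, ordered by the share at 0.1 nM. Points are edgeR estimates over 3 libraries per group, bars are 95% intervals, and the dashed line marks 50%. The points run from 12.3% in TIPARP to 76.4% in PMEPA1 at 0.1 nM.

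Each share was tested against 50% with a contrast of the dose against the average of vehicle and 10 nM on the log2 scale. At 0.03 nM all 10 genes lay below 50%, and 9 or 10 did with a library left out. On this contrast 14.3% of all tested genes were called lower. Its sign is reversed for genes that fall with androgen. The shares of all tested genes on this contrast, here and below, therefore mix genes on either side of 50%. Among the 1021 induced genes described below, 66.6% were below 50% at 0.03 nM. At 0.06 nM 4 were below, ELL2, EAF2, GNMT and TIPARP (13% of all tested genes). Above were 3, SLC45A3, C1orf116 and PMEPA1 (13.7% of all tested genes). Of the 1021 induced genes 44.1% were below at this dose and 9.21% above, so 4 of 10 below was near their share. The count of 4 became 2 on library totals and also without 0.06 nM replicate 3, where GNMT and TIPARP were left in both cases. Without the 5 libraries numbered 3 it was again 4, with ABCC4 in the place of EAF2. With the replicate number as a block it was 6, with ABCC4 and PTGER4 added, although the labels name no pairing. At 0.1 nM TIPARP alone was below (contrast -0.88 ± 0.065, edgeR adjusted p = 4.37e-08; background 13%) and 6 were above, SLC45A3, C1orf116, ELL2, PTGER4, ABCC4 and PMEPA1 (background 14.4%), of which PTGER4 lost its call without the libraries numbered 3. EAF2, GNMT and HERC3 were called on neither side at 0.1 nM. ELL2 thus passed from below 50% at 0.06 nM (-0.20 ± 0.056, adjusted p = 0.0125) to above it at 0.1 nM (0.36 ± 0.055, adjusted p = 9.72e-05), both by edgeR. GNMT was at 50% almost exactly at 0.1 nM, with a contrast of 0.00 and a 95% interval of 45.9% to 54.1% for its share.

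The order depends on the scale of measurement. On the linear CPM scale the median shares were 6.88%, 20.1% and 35.3%, far below those on the log2 scale. At 0.1 nM C1orf116 led with 55.3% of its CPM gain, ahead of PMEPA1 at 52.4% and HERC3 at 44.7%. SLC45A3, behind 2 genes on the log2 scale, was behind 4 here with 37.3%, next to ABCC4 with 37.4%. ELL2 had made 33.3% of its gain, PTGER4 24.4%, EAF2 22.4%, GNMT 21.1% and TIPARP 5.46%. At 0.1 nM C1orf116 and PMEPA1 were therefore the first pair, and GNMT and TIPARP the last pair, on both scales. The order also depends on the dose. At 0.03 nM SLC45A3 and C1orf116 were the first pair, and EAF2 and TIPARP the last pair, on both scales. The linear shares of SLC45A3 (14.7%) and PMEPA1 (14.3%) were close there.

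**Figure D3:**
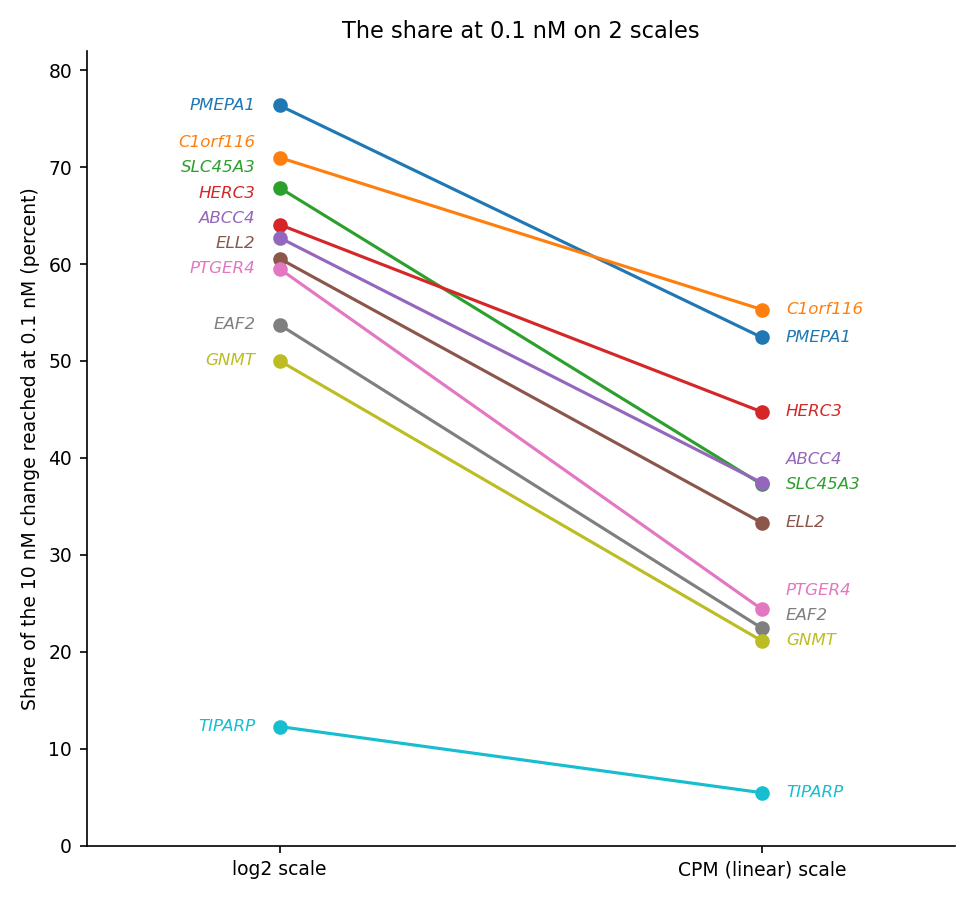
Share of the 10 nM change reached at 0.1 nM by each of the 10 genes on the log2 scale (left) and on the linear CPM scale (right), in percent. Lines join a gene's values, and labels are moved apart where points lie close. SLC45A3 goes from 67.9% to 37.3% and TIPARP from 12.3% to 5.46%, and C1orf116 and PMEPA1 change places at the top.

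For comparison, shares were computed for the 1021 genes that were called higher at 10 nM by a log2 change of at least 1 and had at least 10 counts in vehicle. Their medians were 15.5%, 32.3% and 48.4% at 0.03, 0.06 and 0.1 nM, with quartiles of 29.4% and 66.4% at 0.1 nM. PMEPA1 had a larger share at 0.1 nM than 84.9% of these genes, C1orf116 than 80% and SLC45A3 than 76.8%. GNMT stood near the middle, above 53.2% of them, and TIPARP was above 11.2%. At 0.1 nM 25.5% of the 1021 genes were below 50% by the test and 21.1% above, next to 1 and 6 of the 10 genes. Over 22 other androgen readout genes, 18 were called higher at 0.03 nM and 21 at each of the other doses, with median log2 changes of 0.71 at 0.03 nM and 3.44 at 10 nM. MED28 was the exception, lower at 10 nM (-0.26). STEAP4, a metalloreductase, had 0 counts in vehicle and reached 141 ± 6.30 CPM with 10 nM R1881. That was at least 6178-fold higher when vehicle is set to the floor of 3 counts in its 3 libraries together. Setting it to that bound left the list medians as they were. KLK2, a kallikrein protease, went from 8.77 ± 0.979 to 848 ± 18.1 CPM and had 82.2% of its change at 0.1 nM. FKBP5, a co-chaperone of steroid receptors, went from 58.0 ± 2.37 to 2451 ± 84.6 CPM and had 56.5%. For the 20 of these genes with a share, the medians were 25.8%, 49.4% and 66.5%, and the range at 0.1 nM was 32.8% (NDRG1) to 83.3% (ADAM7). The share of TIPARP at 0.1 nM was below the lowest of the 20, and the other 9 genes lay inside the range.

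The genes whose 4 log2 changes against vehicle lay closest to those of SLC45A3, by Euclidean distance among 11422 genes with at least 5 CPM in 1 group, were ELOVL7, a fatty acid elongase (distance 0.389), TMPRSS2, a membrane serine protease (0.408), and NNMT, nicotinamide N-methyltransferase (0.478). ELOVL7 went from 18.6 CPM in vehicle to 254 CPM at 10 nM, with log2 changes of 1.33, 2.24, 2.69 and 3.77 against 1.66, 2.30, 2.7 and 3.97 for SLC45A3. Closest to ELL2 were the pseudogene AZGP1P1 (0.269), ABCC4 (0.290) and DIPK2A (0.356). ABCC4, itself 1 of the 10, had log2 changes of 0.64, 1.39, 1.96 and 3.12 against 0.69, 1.49, 2.04 and 3.38 for ELL2. AZGP1P1 reached 7.34 CPM at most and shares sequence with AZGP1, so its counts are uncertain. These distances are over 5 group means that all genes share.

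The nearest tested protein-coding gene that did not overlap it was also examined on each side of the 10 genes. This leaves out TTC33, PEX6 and NAP1L5, which overlap PTGER4, GNMT and HERC3 and did not rise (log2 -0.04, -0.39 and -2.38). Of these 20 neighbours 14 were called higher at 10 nM and 3 lower, with a median log2 change of 0.46. Of all 13340 tested protein-coding genes 36.1% were called higher. Genes that were not tested were passed over, and the gaps ran from 103 bases (IQCB1) to 1605089 bases (RICTOR). RAB22A (598159 bases) and CAST (563195 bases) also lay far from the gene they were set beside. EAF2 and its neighbour SLC15A2, a peptide transporter whose start lies 7562 bases beyond the end of EAF2, rose together. SLC15A2 went from 1.25 ± 0.164 to 30.2 ± 1.83 CPM at 10 nM (log2 4.59 ± 0.12), with changes of 0.99, 2.29 and 3.0 at 0.03, 0.06 and 0.1 nM. On the other side of EAF2, IQCB1, with a gap of 103 bases, rose by 0.57. ELK4, an ETS factor 25888 bases downstream of SLC45A3, went from 142 ± 8.83 to 385 ± 40.8 CPM (1.44 ± 0.082). Read-through RNA joining SLC45A3 and ELK4 is known in prostate cells, and gene counts do not separate it from either gene. PFKFB2, a regulator of glycolysis with a gap of 1609 bases from C1orf116, rose from 43.5 ± 1.74 to 103 ± 17.3 CPM (1.24), SSR3 beside TIPARP by 1.56, CNPY3 beside GNMT by 1.06 and HERC5 beside HERC3 by 1.80. Around PTGER4 neither RICTOR (-0.07) nor PRKAA1 (0.13) was called, and FCMR, DZIP1 and RBM38 fell, of which DZIP1 was not called with RLE factors. The remaining 7 neighbours that rose (NUCKS1, RHOBTB3, CAST, PPP2R5D, FAM13A, GPR180 and RAB22A) did so by 0.81 or less. On library totals 11 of the 20 were called higher and 5 lower.

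**Figure D4:**
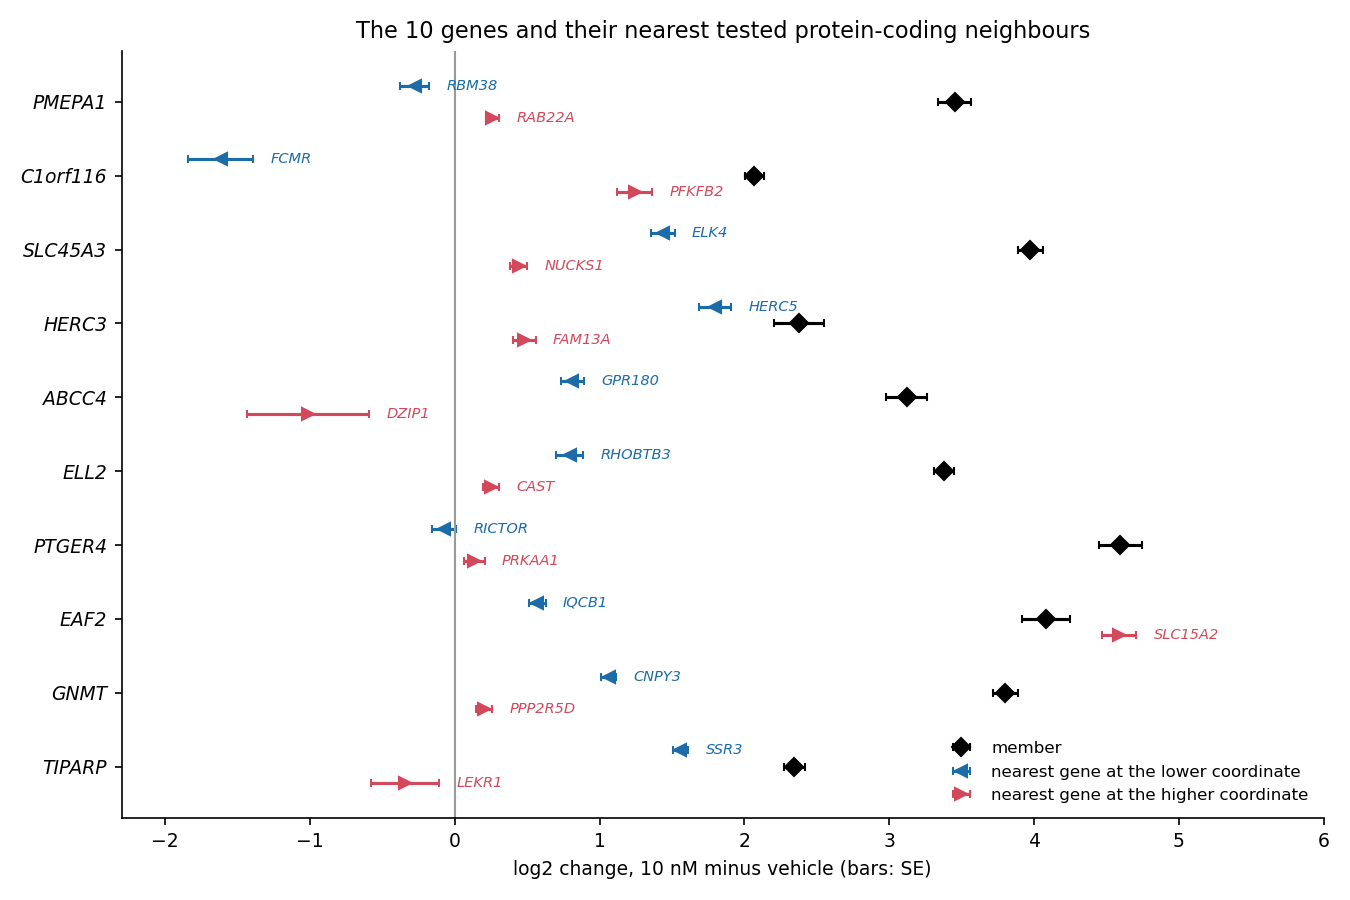
Log2 change from vehicle to 10 nM R1881 of the 10 genes (black diamonds) and of the nearest tested protein-coding gene that did not overlap them, at the lower (blue) and higher (red) coordinate on the same chromosome. Points are edgeR estimates over 3 libraries per group and bars are standard errors. SLC15A2, at 4.59, is the 1 neighbour whose change exceeds that of the gene beside it (EAF2, 4.08).

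Several of the genes overlap other annotated transcripts, and the strand setting of the read counting is not given in the sources used here. The antisense RNA NKILA shares 343 exonic bases with PMEPA1. NKILA went from 6.52 CPM in vehicle to 20.7 CPM at 10 nM (log2 1.66 ± 0.10), well below PMEPA1 at every dose. HERC3 shares 459 exonic bases on the same strand with AC098582.1, which was not among the genes counted in LNCaP. How reads in these shared bases were assigned is not known. NAP1L5, an imprinted gene inside an intron of HERC3 on the opposite strand, shares no exonic base with it and fell from 6.72 to 1.28 CPM (-2.38 ± 0.15) while HERC3 rose. PEX6 shares 11 exonic bases with GNMT and fell by 0.39. The overlaps of TIPARP with TIPARP-AS1 (37 bases) and of ELL2 with AC104123.1 (36 bases) concern transcripts at under 1 CPM in every group. No annotated exon overlapped those of SLC45A3, C1orf116, EAF2, PTGER4 or ABCC4.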

How the data were processed

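RNA was measured in 15 LNCaP libraries, 5 groups of 3. The deposited LNCaP table holds raw read counts per Ensembl gene, made by the authors. Per the submitters' processing notes, Trimmomatic 0.39, STAR 2.7.8a and DESeq2 1.36.0 were used on GRCh38. How reads were counted, with which annotation and strand setting, is not given in the sources used here. Libraries were prepared with a stranded mRNA kit, per the labels' protocols. The 15 columns of the VCaP table match no sample's labels and were not used.

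Counts were analysed with edgeR 4.0.16 in R 4.3.3: filterByExpr (18403 genes), TMM scaling, 1 mean per group over all 15 libraries, quasi-likelihood tests, two-sided, Benjamini-Hochberg adjusted p under 0.05. Errors of log2 changes are standard errors, those of levels are SD over 3 libraries. Intervals of shares (95%) invert the same test. CPM used library totals times TMM factors. Gene positions and exons are from GENCODE 29, and 37732 of 37843 identifiers matched the symbol table. HERC3 has a second identifier with 1 count in all, which was left out. The tests were also run on simulated counts drawn independently for each library. That simulation held no effect of replicate number, so it could not check the tests under the likeness of same-number libraries described below. No 2 libraries of a group agreed within sampling noise (chi-square per gene 3.57 or more). Named beside the members were up to 3 called genes per list with the largest change at 10 nM, the 3 genes closest in pattern to SLC45A3 and to ELL2, and called neighbours; other names complete small counts and were chosen after their values were seen. The members and lists were chosen with earlier results of these data known. The alternatives were RLE factors, library totals, DESeq2 1.42.0, the replicate block, all genes without a filter, a filter of at least 1 CPM in 3 libraries with a mean of 20 counts, only the libraries compared, no libraries numbered 3, each library left out, and the linear scale for shares. 1 luminal marker is not reported here.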

Additional observations from a re-analysis of the deposited data

How the results depend on the processing

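Every count of members called against vehicle stayed within 1.5 times its value under all alternatives run (7 to 9 at 0.03 nM, 9 at 0.06 nM, 10 at 0.1 and 10 nM). The call of EAF2 at 0.03 nM appeared without the low-count filter (edgeR adjusted p = 0.00391), and that of HERC3 was lost with only the libraries compared (0.104) and without the 5 libraries numbered 3 (0.167). On the linear scale the median shares moved to 6.88%, 20.1% and 35.3% by construction. The count below 50% at 0.06 nM was 2 on library totals and 2 to 4 with a library left out, and the count called from 0.06 to 0.1 nM was 3 to 8 with a library left out; the causes were not tested. Values near 0 changed sign. For GNMT at 0.1 nM the contrast with 50% was -0.00755 with no low-count filter, -0.0375 without the libraries numbered 3 and -0.0472 to 0.0607 with a library left out. For TIPARP at 0.06 nM the change was -0.00518 on library totals and -0.0303 to 0.0791 with a library left out. Libraries with the same number correlated by -0.0138 to 0.315 (23 of 30 pairs over 0.1) and each was closest to its own number, a hint from the data. With the replicate block 9 members were called at 0.03 nM, with EAF2 added (adjusted p = 0.0211), 9 at each step between neighbouring low doses, and 6 were below 50% at 0.06 nM, with ABCC4 and PTGER4 added. Over all tests of single genes, direction and call were kept by 905 changes against vehicle, 883 changes between doses and 657 contrasts with 50%. Of these tests 55 others lost and 21 gained a call, and 9 changed sign. Among the shares, which carry no call, 670 moved by less than the spread between replicates and 50 by more. HERC3, at 1.04 to 1.18 CPM in vehicle, had the fewest counts of the 10 genes and the widest intervals.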
